A study of Arabidopsis thaliana with 12 samples.

Results

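The ATG8 genes of Arabidopsis thaliana were followed through 1 light and dark cycle. Members were the probe sets that name exactly 1 gene whose symbol starts with ATG8 in the platform's probe-to-gene table, which gave 7 genes (ATG8B, ATG8C, ATG8D, ATG8E, ATG8F, ATG8G and ATG8H) on 7 probe sets, of 13350 genes on 13513 probe sets that name 1 gene. All 7 passed the filter on dim probe sets, a log2 value of at least 4 on at least 3 of the 12 arrays. The 2 further paralogs of the family, ATG8A and ATG8I, stand in that table under the older symbols APG8A and APG8H, so the rule leaves them out, and their values are given after those of the members.

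The samples were the aerial part of 10-day-old wild type seedlings of the Columbia ecotype, grown on sucrose agar in long days of 16 h light followed by 8 h darkness, the light starting at 6am. All groups share genotype, age and medium and differ in the time of harvest. These times were 6am (0 h, after 8 h of dark), 12pm (6 h after lights on), 6pm (12 h) and 12am (18 h, after 2 h of dark), with 3 replicate arrays of total RNA each. A line overexpressing CCA1 and polysomal RNA, both named in the study's text, were not analysed here. The labels do not say whether the replicates were separate cultures, so the spread behind every p-value may be technical.

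ATG8 is a small ubiquitin-like protein at the centre of autophagy, the process by which a cell encloses its own cytoplasm in a double membrane, the autophagosome, and delivers it to the vacuole for breakdown. The protease ATG4 trims ATG8 to expose a glycine, the enzymes ATG7 and ATG3 then join that glycine to the lipid phosphatidylethanolamine with the help of the ATG12-ATG5-ATG16 complex, and the lipid-bound protein helps the membrane grow and recruits cargo receptors. Plants carry a family of ATG8 genes. ATG8A to ATG8D and ATG8E to ATG8G form related groups, while ATG8H and ATG8I are more distant and already end in the glycine. In leaves autophagy is known for recycling chloroplast protein and for supplying amino acids when carbon is short at night.

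Each level below is the authors' log2 expression value of a probe set, and a difference of 1 is 2-fold. Levels of different probe sets are not compared with each other, since each probe set has its own brightness. Of the 4 leaf markers with a probe set naming 1 gene, the Calvin cycle genes RCA, PRK and SBPASE and the antenna gene LHCB4.1, all were bright, between 12.83 and 14.63 on every array. The only such root marker was PYK10, a beta-glucosidase abundant in roots, at 11.19 to 12.05, and the pollen marker AT5G45880 stayed at the table's lowest value on all 12 arrays. Replicate 1 arrays stood apart: the median of 69 probe sets of plastid-encoded genes was 9.04 to 9.85 on the 4 replicate 1 arrays and 10.73 to 11.35 on the other 8, and values without a replicate 1 array are given where a result rests on it. In whole shoots, fewer cells of a type and less RNA per cell cannot be told apart.

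The paralogs did not move together over the day. ATG8B was highest at 6am and lowest at 12am, ATG8D was lowest at 6am and highest at 6pm, and ATG8F fell slightly from the morning to midnight. By limma's moderated F-test over the 4 times, 3 of 7 members differed (ATG8B, ATG8D and ATG8F), a share near the background, since 46.8% of all 14185 tested probe sets were called. The median range of the 4 means was 0.55 log2 (1.46-fold) over the 7 members and 0.64 log2 (1.56-fold) over all tested probe sets. ATG8E had an adjusted p of 0.0554, just above the threshold of 0.05, and ATG8C, ATG8G and ATG8H had 0.475, 0.378 and 0.164.

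**Figure D1:**
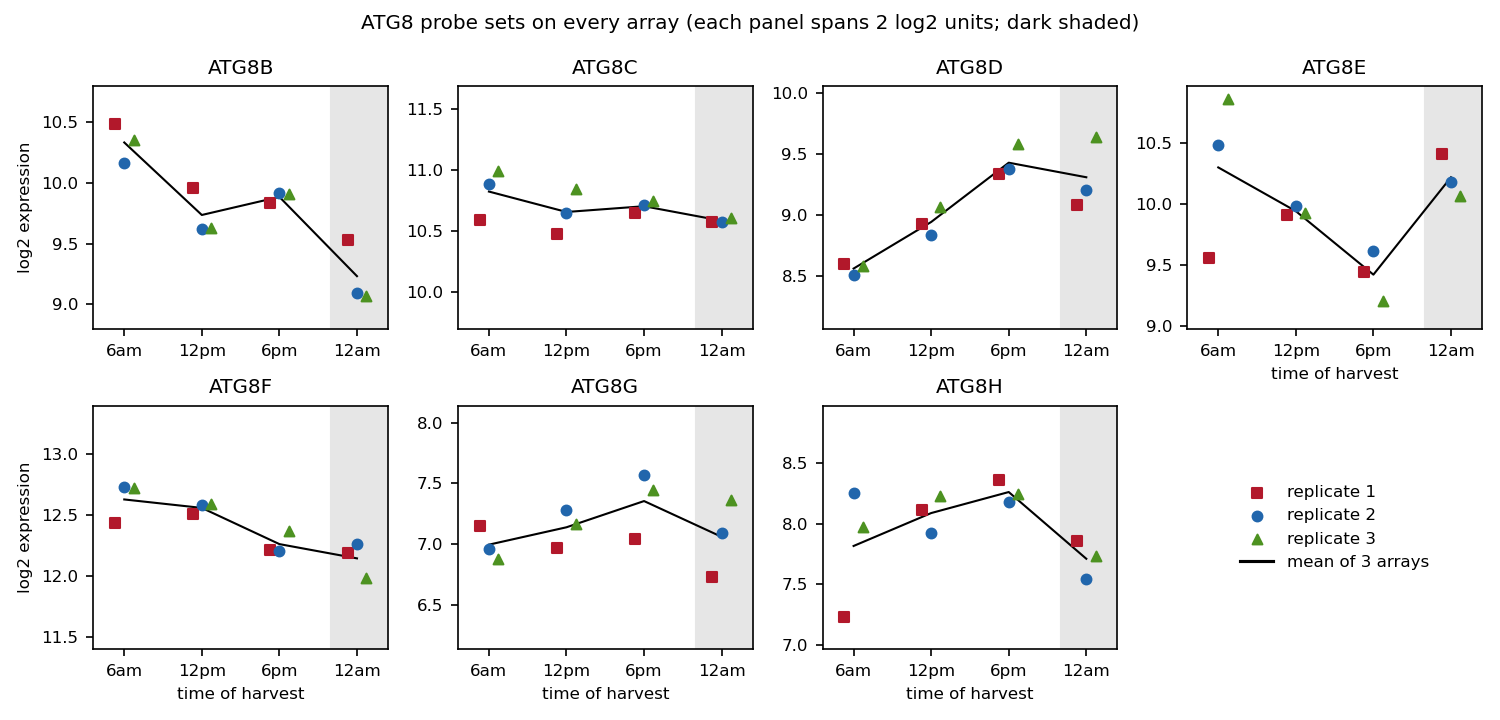
Log2 expression of each ATG8 probe set on every array against time of harvest, with 1 marker for each replicate, a line through the means of 3 arrays and shading for the dark. Each panel spans 2 log2 units on its own axis. ATG8B runs down from 10.33 at 6am to 9.23 at 12am and ATG8D up from 8.56 at 6am to 9.43 at 6pm, while the 6am replicate 1 array lies well below the other 6am arrays for ATG8E and ATG8H.

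ATG8B (AT4G04620) read 10.49, 10.16 and 10.35 on the 3 arrays at 6am and 9.96, 9.62 and 9.63 at 12pm. At 6pm it read 9.83, 9.91 and 9.91, and at 12am 9.53, 9.10 and 9.07. Every 6am array was above every array of the other 3 times, and every 12am array was below all of them. The means were 10.33 ± 0.16 at 6am, 9.88 ± 0.05 at 6pm, 9.74 ± 0.19 at 12pm and 9.23 ± 0.26 at 12am (SD, n = 3), and the neighbours 6pm and 12pm did not differ beyond their spread (difference 0.15 ± 0.16 SE, adjusted p = 0.622). The rise from 12am to 6am was 1.10 ± 0.16 (SE), or 2.14-fold, with an adjusted p of 0.000477. It was called without each array in turn, with adjusted p of 0.000169 to 0.00371.

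The other called ATG8B differences were smaller. From 6am to 12pm it fell by 0.60 ± 0.16, or 1.51-fold (adjusted p = 0.0125), and from 6pm to 12am by 0.65 ± 0.16, or 1.57-fold (adjusted p = 0.0128). The first was lost without 12pm replicate 2 (0.0514) or 12pm replicate 3 (0.0501), with 0.00352 to 0.0514 over its alternatives. The second was lost without 12am replicate 2 (0.0575) or 12am replicate 3 (0.0567), with 0.00137 to 0.0575 over its alternatives. At 12am it was below 12pm by 0.50 ± 0.16 (adjusted p = 0.0342). This call was lost when 12pm replicate 1 (0.125), 2 (0.0523) or 3 (0.0547) or 12am replicate 2 (0.122) or 3 (0.124) was left out, when arrays were shifted to 1 median (0.0582) and when only the 6 arrays of these times were fitted (0.072), and its alternatives spanned 0.00819 to 0.125. The 1.36-fold fall from 6am to 6pm (adjusted p = 0.0496) was called in 3 of the 12 fits that leave out 1 array, with 0.0162 to 0.124 over its alternatives. Means of 6am and 6pm together were above those of 12pm and 12am by 0.62 ± 0.11 (adjusted p = 0.00454), a 12-h alternation called for 1 of 7 members against 13.8% of all tested probe sets.

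ATG8D (AT2G05630) read 8.59, 8.51 and 8.58 at 6am and 8.92, 8.83 and 9.07 at 12pm. At 6pm it read 9.33, 9.38 and 9.58, and at 12am 9.08, 9.20 and 9.64. All 9 arrays of the other times lay above all 6am arrays, and the 12am arrays overlapped those of 6pm. In order the means were 9.43 ± 0.13 at 6pm, 9.31 ± 0.29 at 12am, 8.94 ± 0.12 at 12pm and 8.56 ± 0.05 at 6am (SD, n = 3). In the fit without replicate number as a term, no neighbours in that order passed the test, with differences of 0.12 (adjusted p = 0.657), 0.37 (0.0988) and 0.38 ± 0.15 (0.0753). ATG8D was higher at 6pm than at 6am by 0.87 ± 0.15, or 1.83-fold (adjusted p = 0.00112), and fell from 12am to 6am by 1.68-fold (0.75 ± 0.15, adjusted p = 0.00446). Both were called without each array in turn, with adjusted p of at most 0.00656 and 0.0194.

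ATG8F (AT4G16520) read 12.43, 12.73 and 12.72 at 6am and 12.51, 12.58 and 12.59 at 12pm. At 6pm it read 12.21, 12.21 and 12.36, and at 12am 12.19, 12.26 and 11.98. The arrays of 6am and 12pm lay above all those of 6pm and 12am. The means stepped from 12.63 ± 0.17 at 6am over 12.56 ± 0.04 and 12.26 ± 0.09 to 12.14 ± 0.14 at 12am (SD, n = 3), a range of 1.40-fold. Its neighbours in that order differed by 0.07 (adjusted p = 0.718), 0.30 ± 0.13 (0.161) and 0.12 (0.592). It was higher at 6am than at 12am by 0.48 ± 0.13 (adjusted p = 0.018), lower at 12am than at 12pm by 1.33-fold (0.0314) and lower at 6pm than at 6am by 1.29-fold (0.047).

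Neither the F-test call nor any called difference between times of ATG8F held in all fits that leave out 1 array. The F-test (adjusted p = 0.0207) no longer called it when 6am replicate 2 (0.0578), 6am replicate 3 (0.0552) or 12am replicate 3 (0.0569) was left out, with 0.0051 to 0.0578 over its alternatives. The 6am against 12am call was lost without the same arrays (0.071, 0.0667 and 0.0818) and with only the 6 arrays of these times (0.0717), with 0.00512 to 0.0818 over its alternatives. For 12am against 12pm it was lost without 12pm replicate 1, 2 or 3 or 12am replicate 3 (0.056, 0.0853, 0.0883 and 0.121) and with arrays shifted to 1 median (0.0611), with 0.0102 to 0.121 over its alternatives. The 6pm against 6am call remained in 2 of 12 such fits, with 0.0157 to 0.149 over its alternatives.

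ATG8E (AT2G45170) read 9.55, 10.49 and 10.86 at 6am and 9.91, 9.99 and 9.93 at 12pm. At 6pm it read 9.44, 9.62 and 9.20, and at 12am 10.41, 10.18 and 10.07. The 6pm arrays were below all those of 12pm and 12am, while the 6am replicate 1 array was 1.12 log2 below the mean of the other 6am arrays and overlapped the 6pm values. The plastid median on that array was 9.04, against 11.27 and 11.35 at 6am on replicates 2 and 3. On the replicate 1 arrays of 12pm, 6pm and 12am the plastid median was also low, at 9.82, 9.09 and 9.85. There ATG8E differed from the mean of replicates 2 and 3 by -0.04, 0.03 and 0.28, and a link with ATG8E was not tested. Means were 10.30 ± 0.67 at 6am, 10.22 ± 0.17 at 12am, 9.94 ± 0.04 at 12pm and 9.42 ± 0.21 at 6pm (SD, n = 3), and no neighbours in that order passed the test (adjusted p = 0.861, 0.484 and 0.244). ATG8E was lower at 6pm than at 6am by 0.88 ± 0.27, or 1.84-fold (adjusted p = 0.0251).

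How large the ATG8E change was depended on the 6am replicate 1 array. Without 6am replicate 1 the F-test had an adjusted p of 0.000765 and a range of 1.25 log2, and replicates 2 and 3 by themselves gave 0.00276 and 1.26, while the alternatives together spanned adjusted p of 0.000765 to 0.180. Without the same array the 6pm value was below 6am at an adjusted p of 0.000281, 12am was above 6pm by 0.80 (0.00318, against 0.0557 with all arrays), and 12pm was below 6am by 0.73 (0.0071, against 0.331). Across their alternatives these 3 adjusted p ran from 0.000281 to 0.0991, from 0.00318 to 0.163 and from 0.0071 to 0.841. The 6pm against 6am call was lost without 6am replicate 2 (0.0834), 6am replicate 3 (0.0991, with a difference of -0.60), 6pm replicate 1 (0.053) or 6pm replicate 3 (0.0883), and also when dim probe sets were kept (0.073) or only the 6 arrays of these times were fitted (0.0942).

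The remaining members had no call on all 12 arrays. ATG8C (AT1G62040) read 10.59, 10.89 and 10.99 at 6am, 10.48, 10.65 and 10.84 at 12pm, 10.65, 10.72 and 10.75 at 6pm and 10.58, 10.57 and 10.60 at 12am. The groups overlapped apart from 12am, whose highest array (10.60) was below all 6pm arrays. Its means in order were 10.83 ± 0.21 at 6am, 10.70 ± 0.05 at 6pm, 10.66 ± 0.18 at 12pm and 10.59 ± 0.02 at 12am (SD, n = 3). The largest difference, 6am against 12am, was 0.24 ± 0.14 (SE, adjusted p = 0.237), and no neighbours passed the test.

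ATG8G (AT3G60640) read 7.15, 6.96 and 6.88 at 6am, 6.97, 7.28 and 7.17 at 12pm, 7.05, 7.57 and 7.45 at 6pm and 6.73, 7.09 and 7.36 at 12am. All 4 groups overlapped, and replicate 1 was the lowest of its group at 12pm, 6pm and 12am and the highest at 6am. The means were 7.36 ± 0.27 at 6pm, 7.14 ± 0.16 at 12pm, 7.06 ± 0.32 at 12am and 7.00 ± 0.14 at 6am (SD, n = 3). Its 6pm against 6am difference was 0.36 ± 0.19 (adjusted p = 0.172), and 0.59 (0.00935) when replicate 1 was left out at every time, and the alternatives spanned 0.00935 to 0.410.

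ATG8H (AT3G06420) read 7.23, 8.25 and 7.97 at 6am, 8.11, 7.92 and 8.23 at 12pm, 8.36, 8.18 and 8.24 at 6pm and 7.85, 7.54 and 7.74 at 12am. The 12am arrays were below all those of 12pm and 6pm, and 6am replicate 1 was 0.88 below the mean of the other 6am arrays. In order the means were 8.26 ± 0.09 at 6pm, 8.09 ± 0.15 at 12pm, 7.82 ± 0.53 at 6am and 7.71 ± 0.16 at 12am (SD, n = 3), and no neighbours passed the test (adjusted p = 0.694, 0.38 and 0.773). Its 12am level was below that of 6pm by 0.55 ± 0.22 (adjusted p = 0.107). Without 6am replicate 1 that difference was called (0.014), as was the F-test (0.0299), with 0.014 to 0.280 and 0.0299 to 0.307 over their alternatives.

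The paralogs outside the rule had no call either. ATG8A (AT4G21980) lay between 9.89 and 10.56 on all arrays with a range of means of 0.27 log2 (adjusted p = 0.546). ATG8I (AT3G15580) lay between 11.23 and 11.55 with a range of 0.21 (adjusted p = 0.297). Neither had a called difference between any 2 times.

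**Figure D2:**
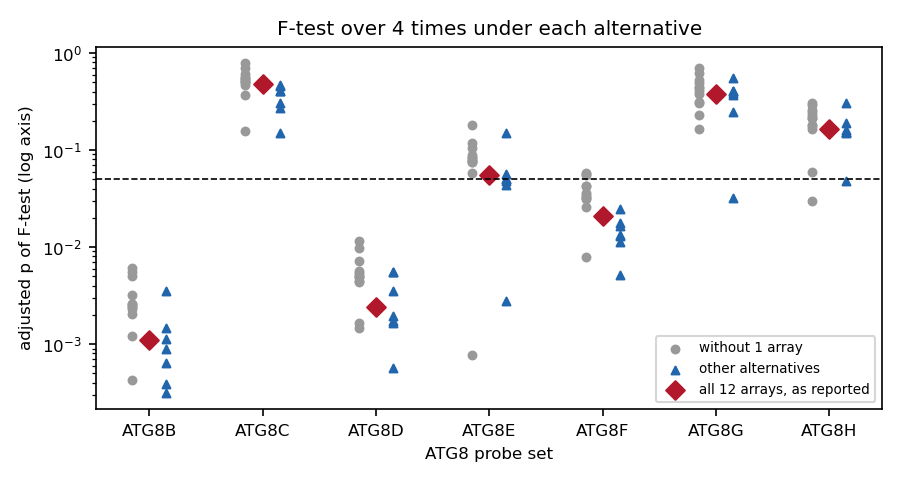
Adjusted p of the F-test over the 4 times (log axis) for each ATG8 probe set, with all 12 arrays, without each array in turn and under the other alternatives; the dashed line marks 0.05. ATG8B and ATG8D stay below the line in every fit shown, ATG8F crosses it in 3 fits, and ATG8E reaches 0.000765 without the 6am replicate 1 array.

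Set side by side by comparison, members moved in opposite directions. From 6am to 6pm 4 of 7 were called, ATG8D higher and ATG8B, ATG8E and ATG8F lower, where 32.4% of all tested probe sets were called (16.7% higher and 15.7% lower). The rise or fall through the late night, 6am against 12am, was called for 3 of 7 (23.7% of all), with ATG8B and ATG8F higher and ATG8D lower at 6am (11.2% and 12.5% of all). At 12am against 12pm 2 of 7 were lower (28.1% of all, 13.9% higher and 14.2% lower), ATG8B and ATG8F. ATG8B alone was called, lower, at 12pm against 6am (34.4% of all, 17.3% higher and 17.1% lower) and at 12am against 6pm (19.9% of all, 9.95% higher and 9.97% lower). At 6pm against 12pm limma called 0 of 7 (14.3% of all, 6.38% higher and 7.89% lower), with 2 at an unadjusted p below 0.05, ATG8D and ATG8F. Of the 42 member differences 11 were called, and 3 of these were called in every fit that leaves out 1 array: ATG8B at 6am against 12am, and ATG8D at 6am against 12am and at 6pm against 6am. These comparisons share arrays and are not independent.

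**Figure D3:**
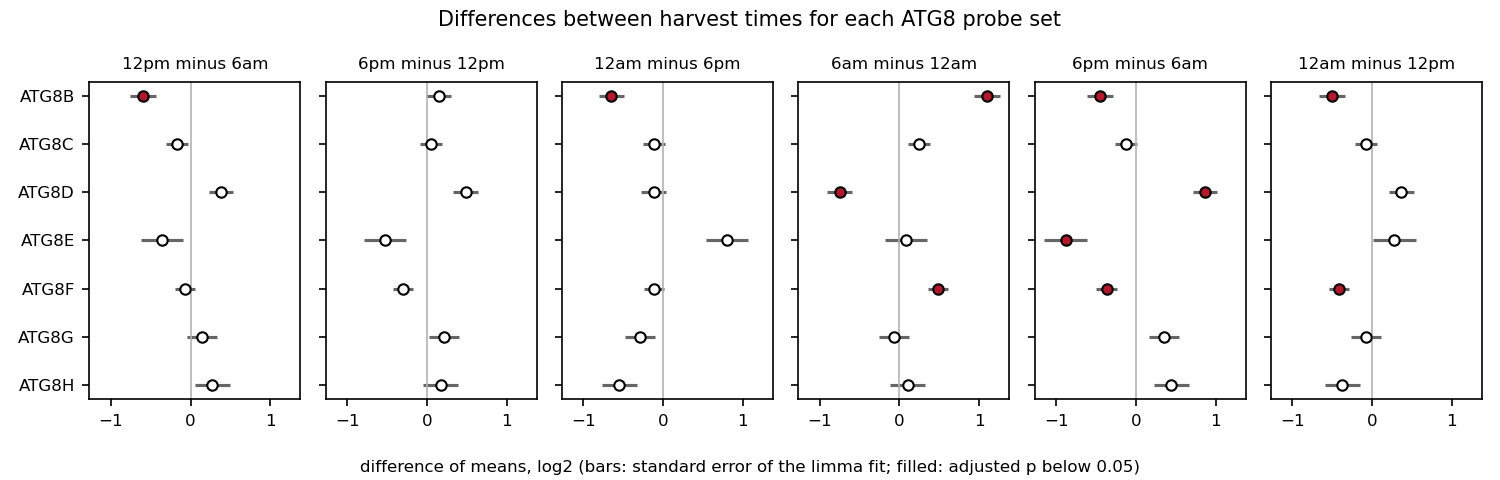
Difference of means (log2) between 2 harvest times for each ATG8 probe set, with bars for the standard error of the fit and filled points for an adjusted p below 0.05. At 6am minus 12am ATG8B lies at 1.10 and ATG8D at -0.75, and at 6pm minus 6am ATG8D lies at 0.87 and ATG8E at -0.88.

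Whether profiles differ between paralogs was tested directly on the difference of 2 probe sets within each array, which leaves out their brightness. All 21 pairs of members were compared by an exact permutation test of the F statistic over the 4 times (15400 distinct assignments of the 12 arrays, smallest possible p 6.49e-05), adjusted by Benjamini-Hochberg over the 21 pairs. It called 14 pairs, of which 4 were called without each array in turn. Pairs of other probe sets were not tested, so this count has no background share beside it. By the F-test 46.8% of all tested probe sets differed over the 4 times, so the count is not a trait shown to be particular to ATG8. ATG8B minus ATG8D fell from 1.04 at 6am to -0.81 at 12am relative to its mean over the arrays, a range of 1.85 log2 (exact p = 0.000714, adjusted 0.00477, and at most 0.0186 without any 1 array). Every 6am array was above every other array in that difference.

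The other 3 such pairs also held ATG8D or ATG8E. ATG8C minus ATG8D had a range of 0.99 log2 (exact p = 0.000909, adjusted 0.00477) and was highest at 6am. ATG8D minus ATG8F had a range of 1.24 (exact p = 0.000909, adjusted 0.00477) and was lowest at 6am. ATG8E minus ATG8H had a range of 1.35 (exact p = 0.000779, adjusted 0.00477), lowest at 6pm and high at 6am and 12am. Of the other 10 pairs called, ATG8D and ATG8E had the widest range (1.75, exact p = 0.00571, adjusted 0.024), a call lost without 6pm replicate 1 or 6pm replicate 3, with adjusted p of 0.00426 to 0.0865 over its alternatives. With replicates 2 and 3 alone, where the smallest possible p is 0.00952, none of the 21 pairs was called and these 4 had adjusted p of 0.06 to 0.0833. Among fits that leave out 1 array, the number of pairs called ranged from 4, without 6pm replicate 1 or 6pm replicate 3, to 12, without 6am replicate 2. It was 6 without 12pm replicate 2 or 3, 6pm replicate 2 or 12am replicate 1 or 3; it was 7 without 12am replicate 2, 9 without 12pm replicate 1, and 11 without 6am replicate 1 or 3. Pairs ATG8G and ATG8H (range 0.30, exact p = 0.845, adjusted 0.845) and ATG8C and ATG8G (0.48, exact p = 0.254, adjusted 0.267) had the highest p.

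**Figure D4:**
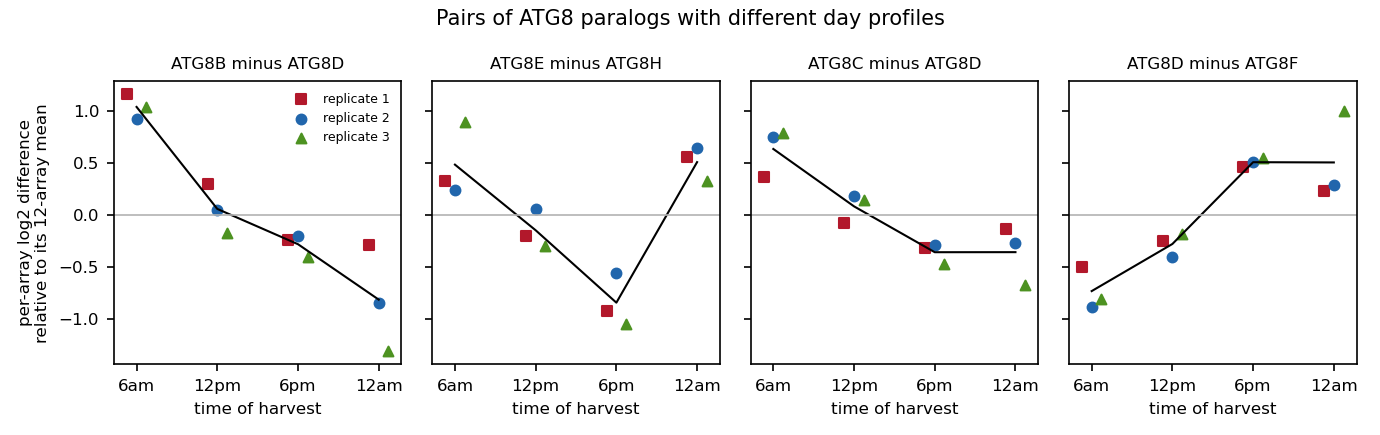
Log2 difference between 2 ATG8 probe sets on each array, relative to its mean over 12 arrays, against time of harvest, for the 4 pairs called without each array in turn; lines join the means of 3 arrays. ATG8B minus ATG8D falls through the day over a range of 1.85, and ATG8E minus ATG8H dips at 6pm.

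A 24-h wave fitted to the 4 means was called for 4 of 7 members, against 44.8% of all tested probe sets. Its amplitude, the distance from mean to peak, was 0.47 log2 for ATG8D with a fitted peak 13.5 h after lights on (adjusted p = 0.00129) and 0.28 for ATG8F with a peak at 3.23 h (0.0125). For ATG8D and ATG8F the wave took 96.3% and 94.6% of the variance between times. ATG8B, at 0.34 with a peak at 3.22 h (0.0137), had 36.8% in the wave and the rest in its 12-h alternation. With 4 harvest times that alternation is whatever the wave leaves over, not a fitted 12-h rhythm. In 12 of 12 fits that leave out 1 array the waves of ATG8D, ATG8F and ATG8B were called. Their adjusted p there were at most 0.00588, 0.0326 and 0.0381. ATG8E had an amplitude of 0.46 and a peak at 22.8 h (0.0391), a call kept in 1 of 12 fits that leave out 1 array, with 0.000392 to 0.116 over its alternatives. Harvests 6 h apart place such peaks only roughly.

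The genes that act with ATG8 showed no shared profile either. Of 42 further genes listed for autophagy and its regulation, 12 had a probe set naming 1 gene, and 10 of these passed the filter, each on 1 probe set. Probe sets of ATG13B and RAPTOR1B and a second one each for ATG1C and ATG14A stayed dim. The F-test called 3 of 10 (ATG1A, ATG3 and ATG16), where 46.8% of all were called. The median range of means was 0.46 log2, against 0.64 over all tested probe sets.

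ATG3, the enzyme that joins ATG8 to its lipid, read 8.74, 8.74 and 8.77 at 6am, 9.46, 9.46 and 9.67 at 12pm, 8.77, 9.07 and 9.21 at 6pm and 8.99, 9.12 and 9.11 at 12am. Its 12pm arrays were above all others. It rose from 6am to 12pm by 0.78 ± 0.13, or 1.71-fold (adjusted p = 0.000941), and was lower at 6pm than at 12pm by 1.43-fold (0.0246) and at 12am than at 12pm by 1.37-fold (0.0245). The 6pm call was lost without 12pm replicate 2 (0.0551), 12pm replicate 3 (0.101) or 6pm replicate 1 (0.0914), and when the fit held just the 6 arrays compared (0.0805), and the 12am call without 12pm replicate 3 (0.0962) or 12am replicate 1 (0.0633), 2 (0.0553) or 3 (0.055). Over their alternatives these adjusted p ran from 0.00851 to 0.101 and from 0.00856 to 0.0962.

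ATG16, which binds the ATG12-ATG5 conjugate, read 8.16, 8.19 and 8.17 at 6am, 7.79, 8.00 and 8.03 at 12pm, 7.59, 7.54 and 7.51 at 6pm and 8.06, 7.87 and 7.78 at 12am. The 6am arrays were the highest and the 6pm arrays the lowest. It fell from 6am to 6pm by 0.63 ± 0.12, or 1.55-fold (adjusted p = 0.0018). Its 1.32-fold fall from 12pm to 6pm (0.0471) remained called in 3 of 12 fits that leave out 1 array, with 0.0173 to 0.153 over its alternatives. ATG4B, a protease that trims ATG8, had a range of means of 0.21 log2 (adjusted p = 0.554).

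ATG1A, a kinase that starts autophagosome formation, read 8.85, 8.51 and 8.52 at 6am, 9.27, 9.00 and 9.31 at 12pm, 9.42, 9.09 and 9.31 at 6pm and 8.43, 8.29 and 8.34 at 12am. The arrays of 12pm and 6pm were above all those of 6am and 12am. It rose from 6am to 12pm by 1.48-fold (adjusted p = 0.0102), fell from 6pm to 12am by 0.92 ± 0.15, or 1.89-fold (0.00101), and was higher at 6pm than at 6am by 1.56-fold (0.00533) and lower at 12am than at 12pm by 1.79-fold (0.00115). All 4 were called without each array in turn. Its relatives ATG1B, ATG1C and ATG1T and the partner ATG101 had ranges of 0.42, 0.31, 0.51 and 0.13 log2 (adjusted p of 0.36, 0.314, 0.233 and 0.659).

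Among subunits of the lipid kinase complex that marks the growing membrane, ATG14A was lower at 12pm than at 6am by 0.96 ± 0.27 (adjusted p = 0.0179). That call was lost without 6am replicate 1 (0.0616), 12pm replicate 2 (0.0722) or 12pm replicate 3 (0.0652) and with dim probe sets kept (0.0565), with 4.15e-05 to 0.0722 over its alternatives. Its F-test had 0.0638, with 0.00232 for replicates 2 and 3 alone and 0.000146 to 0.193 over its alternatives. Replicate 1 was above the mean of replicates 2 and 3 by 0.67 at 6am, 0.63 at 12pm, 0.72 at 6pm and 0.52 at 12am. VPS38 had a range of 0.17 (adjusted p = 0.928). By comparison, 3 of 10 were called at 12pm against 6am (ATG3 and ATG1A higher, ATG14A lower), where 34.4% of all tested probe sets were called, and 2 at 6pm against 6am (ATG1A higher, ATG16 lower; 32.4% of all). At 6pm against 12pm 2 of 10 were lower, ATG3 and ATG16 (14.3% of all), and at 12am against 12pm 2 of 10, ATG3 and ATG1A (28.1% of all). ATG1A alone was lower at 12am against 6pm (19.9% of all). At 6am against 12am limma called 0 of 10 (23.7% of all), with 2 at an unadjusted p below 0.05.

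**Figure D5:**
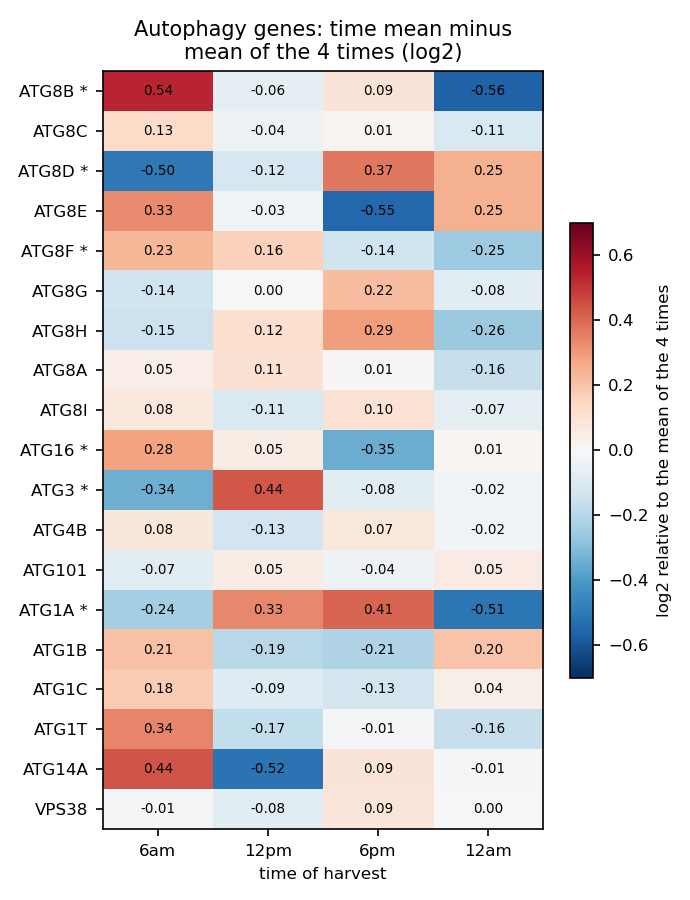
Mean at each harvest time minus the mean of the 4 times (log2) for the 7 ATG8 members, the paralogs ATG8A and ATG8I and 10 further autophagy genes, with an asterisk where the F-test had an adjusted p below 0.05. The columns hold both signs at every time: at 6am ATG8B is at 0.54 and ATG8D at -0.50, and at 6pm ATG1A is at 0.41 and ATG8E at -0.55.

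For each member, the 4 other genes with the most similar values over the 12 arrays were taken among the probe sets naming 1 gene that the F-test called, 3470 or 3471 of them, by Pearson's r. The r values describe arrays that share replicate and normalization. Genes picked by r resemble the member through the selection, so their high and low times add no support for its profile. For ATG8D they were AT5G49900, AT2G03420, AT1G19370 and AT5G02240, with r of 0.968, 0.954, 0.948 and 0.945. For ATG8B they were AT3G12340, BZIP24, a bZIP transcription factor, AT1G12230 and CBL, a cystathionine beta-lyase of methionine synthesis, with r of 0.942, 0.940, 0.920 and 0.910. BZIP24 had the same order of high and low ends as ATG8B, from 7.14 at 6am to 5.51 at 12am. For ATG8F they were AT5G15910, AT2G04690, SKP2A, an F-box protein of the cell cycle, and AT1G66130, with r of 0.938 to 0.923, and these fell further over the day, by ranges of 1.05 to 1.77 log2 against 0.48.

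The matches of the other members were looser. For ATG8E they were AT3G56930, AT5G54780, AT1G25520 and AT5G17600, with r of 0.910 to 0.877, and all had their lowest mean at 6pm. For ATG8G they were AT4G36680, AT2G35605, AT3G22550 and AT3G49930 (0.856 to 0.793), and for ATG8H AT4G31530, AT5G08510, AT1G34640 and ZW9 (0.831 to 0.812), all 8 with their highest mean at 6pm. For ATG8C they were AT5G59480, AT5G43460, AT2G21560 and AT1G06720 (0.840 to 0.801), with their highest mean at 6am.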

How the data were processed

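Per the labels' protocols, total RNA was primed with oligo(dT), labelled with biotin and hybridised to Affymetrix arrays of 1 colour. The authors deposited GCRMA values on the log2 scale, computed in R 3.1 with affy 1.42.3 according to the submitters' processing notes. The sources used here do not say which arrays were normalized as a set. Normalization between arrays hides any change in total mRNA.

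Symbols come from the platform's annotation, loci from RefSeq (TAIR10.1), joined by gene identifier. With 64 controls set aside, 22746 probe sets were left: 13513 pair with 1 gene, 503 with several, and 8730 are unnamed here. After the filter 14185 were fitted with limma 3.58.1 (R 4.3.3, time as a factor, eBayes defaults, 8 residual and 3.44 prior degrees of freedom). Two-sided p-values of each test were adjusted (Benjamini-Hochberg) over all fitted probe sets, and called means below 0.05. The fit was tested on simulated data with independent noise on each array. That simulation did not cover effects shared by arrays of the same replicate number. Probe sequences were not used, so signal shared between paralogs was not tested. Precision is limited by the number of arrays, which have no read depth.

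Members, lists, tests and alternatives were chosen with earlier results of these data known. The text names every member, every listed autophagy gene with a probe set and the 4 closest genes of each member. Alternatives were no filter, a stricter one, 2 other scalings, a replicate block, another prior, replicates 2 and 3 alone, only the arrays of the 2 times, and each array left out.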

Additional observations from a re-analysis of the deposited data

How the results depend on the processing

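Among recomputed member tests 1138 stayed on the same side of the threshold, 65 lost a call, 36 gained one and none changed the sign of a called value. Uncalled differences could change sign. For ATG8C at 6pm against 12pm the difference was 0.05 on all arrays and -0.04 to 0.14 over its alternatives. On all arrays the members called were 3 of 7 by the F-test, and 1, 0, 1, 3, 4 and 2 at 12pm against 6am, 6pm against 12pm, 12am against 6pm, 6am against 12am, 6pm against 6am and 12am against 12pm. Leaving out 1 array gave 2 to 5 by the F-test, and 0 to 2, 0 to 1, 0 to 3, 1 to 3 and 0 to 3 in these comparisons other than 6am against 12am. The shares of all probe sets in these fits were 40.4% to 49.5% by the F-test. In the same order of comparisons they were 26.9% to 36.1%, 9.09% to 17.4%, 14.5% to 23.7%, 26.5% to 34% and 21.1% to 32.5%. Over the same fits the range of means was 0.77 to 1.25 log2 for ATG8E, 0.41 to 0.58 for ATG8F and 0.46 to 0.66 for ATG8H, and 4 to 12 paralog pairs were called, against 14. For the other autophagy genes it was 0 to 2 at 6pm against 12pm and 1 to 2 at 12am against 6pm and against 12pm, and over all probe sets 1214 to 2515 for the alternation, 2113 to 3804 at 6am against 12am and 1286 to 2454 at 6pm against 12pm.

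With replicates 2 and 3 alone, 6 of 7 members were called by the F-test, all but ATG8C, where 58.3% of all probe sets tested in that setting were called, with ranges of 1.26 (ATG8E), 0.59 (ATG8G) and 0.57 (ATG8H). There 2 members were called at 12pm against 6am (42.6% of all), 3 at 12am against 6pm (27.8%) and 5 at 6am against 12am (35.9%). Of the 21 pairs 0 were called (smallest possible exact p 0.00952), and the alternation called 3344 probe sets (23.9%). Of the other autophagy genes 5 were called by the F-test (58.3% of all), 5 by the wave (54.8%) and 2 by the alternation (23.9%). Differences called among them were 2 at 12am against 6pm (27.8%), 2 at 6am against 12am (35.9%) and 4 at 12am against 12pm (37.7%). Same-numbered arrays of 2 times mostly deviated from their group means together, with r above 0.1 in 17 of 18 pairs (up to 0.649) and 0.0554 for replicate 3 at 6am and 12am, and in 32 of 36 cases an array correlated best with its own number at another time. This is a hint from the data that numbers share a source. The labels do not say what a number marks and not every pair was above 0.1, so the values reported are those without the block. With the replicate block, 2 members were called at 12pm against 6am (45.6% of all), 1 at 6pm against 12pm (23.3%) and 2 at 12am against 6pm (30.4%). The calls gained were ATG8D at 12pm against 6am (adjusted p = 0.0242), 6pm against 12pm (0.0157) and 12am against 12pm (0.033), and ATG8E at 12am against 6pm (0.0458), while 62.9% of all probe sets passed the F-test, against 46.8% without the block. ATG14A and ATG1T passed the F-test there (0.000146 and 0.022, against 0.0638 and 0.233). In all, 5 of the other autophagy genes were called by the F-test there (62.9% of all), 5 by the wave (58.9%) and 3 by the alternation (25.6%). Called differences were 2 at 12am against 6pm (30.4%) and 3 at 6am against 12am (36%). Over all probe sets it called 3627 for the alternation, 3303 at 6pm against 12pm, 4313 at 12am against 6pm and 5111 at 6am against 12am, against 1957, 2024, 2826 and 3363 without it.

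ATG8E passed the F-test with arrays shifted to 1 median (range 0.92, adjusted p = 0.0482) and with the trended prior (0.88, 0.044). With the shift, the quantile scaling, the stricter filter or the trended prior 1 member, ATG8D, was called at 6pm against 12pm. The shares of all probe sets there were 14.3%, 15.1%, 15.9% and 14.9%. With the shift limma called 0 members at 12am against 12pm (28% of all), where 2 had been called. Without a filter 2 members were called at 6pm against 6am (18% of all). A fit of just the 6 arrays compared gave 1 there (26.2%), 1 at 12am against 12pm (28.1%) and 3 at 12am against 6pm (15.7%). The trended prior called 2 at 12am against 6pm (20.4%). Of the other autophagy genes 2 were called at 12am against 6pm without a filter (10.7% of all), with the stricter one (21.2%) and with quantile scaling (20.3%). At 6pm against 12pm 1 was called with the shift (14.3%), 1 with the trended prior (14.9%) and 0 with only the 6 arrays (12.3%). The cause of these changes was not tested. The number of arrays limits which small differences can be told from the spread.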
